A study of Mus musculus with 12 samples.

Results

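The H3K4me3 peaks of wild-type mouse embryonic fibroblasts (MEFs) were compared between a doxorubicin-treated and a mock-treated culture. They were all peaks of the 2 wild-type H3K4me3 lists, 31374 of the 128880 peaks in the 8 lists of the series, with 16477 in doxorubicin and 14897 in mock. Both cultures were primary MEFs of a hybrid 129/B6 background with intact lincRNA-p21. The treated culture had received doxorubicin for 24 h, at 0.5 mM according to the labels, and the other is labelled as mock. Whether the unit of that dose is right was not determined. Where the knockout is used for comparison, its lists come from lincRNA-p21-/- MEFs of the same background under the same pair of treatments. Each list rests on 1 library, so that no spread between replicates and no p-value could be given. The number of embryos or cultures behind a library is not given in the sources used here.

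H3K4me3 is trimethylation of lysine 4 of histone H3, which the SET1 and MLL family of methyltransferase complexes place around the start sites of active genes. It also marks promoters held in a poised state, where it lies together with H3K27me3, the mark that Polycomb repressive complex 2 places, and such promoters are called bivalent. Doxorubicin is a topoisomerase II poison that breaks DNA and activates p53, and lincRNA-p21 is a long noncoding RNA that p53 induces. The series title asks about this RNA in the expression of Polycomb targets and in the G1/S checkpoint. The pair of lists described here shows where H3K4me3 was called in wild-type cells with and without the drug.

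A ChIP-seq peak is a stretch of the genome where reads from the immunoprecipitated chromatin pile up above background. Its score is the authors' own value, a p-value on a negative logarithmic scale multiplied by 10, and it was compared only within a list. No score lay under 80, and scores of 3100 or more were treated as tied, since they stand for p-values too small to be told apart. Such tied scores made up 19.99% of the doxorubicin list and 18.1% of the mock list. The median score was 1526 in doxorubicin and 1512 in mock. The median peak was 1734 bp wide in doxorubicin and 2029 bp in mock, and the peaks covered 32.1 Mb in doxorubicin and 33.4 Mb in mock. The narrowest peak measured 235 bp in doxorubicin and 422 bp in mock, a lower limit that differed between libraries, and its part in the widths below was not tested. Read depth is unknown. The binomial intervals below are exact 95% intervals over peaks; they cover counting error only and treat neighbouring peaks as independent. Peaks carry positions only, counted from 1 in build mm9, and no gene names or fibroblast markers were checked.

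Most of the H3K4me3 landscape was shared, and the difference in presence lay mainly among weak peaks. A peak was called gained where a doxorubicin peak had no mock peak overlapping it by 1 bp or more, and lost where a mock peak had no doxorubicin peak. Gained peaks numbered 1359, which is 8.25% of the doxorubicin list, and lost peaks numbered 329, which is 2.21% of the mock list. Both words describe presence in a list, not a tested change. With both lists shortened to an equal number of top-scoring peaks, 462 were gained and 780 lost. In lists of equal length these counts differ only through peaks that divide or join, so this setting cannot show an excess either way. With only peaks scoring 100 or more kept in both lists, 1220 were gained and 280 lost. The part of list length in the excess of gained peaks was not tested. In bases, 29.3 Mb lay in both lists, which is 91.3% of the doxorubicin bases and 87.7% of the mock bases. Another 2.80 Mb lay only under doxorubicin peaks and 4.09 Mb only under mock peaks. Of the bases found only in doxorubicin, 42.0% lay in gained peaks and 51.7% at the edges of one-to-one matched peaks. Of the bases found only in mock, 8.22% lay in lost peaks and 85.2% at the edges of matched peaks. The bases that were in mock alone were therefore mostly flanks of peaks that were present in both lists.

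Gained peaks were narrow and low in score. Their median width was 803 bp and their median score 121, against 1821 bp and 1713 for the doxorubicin peaks that overlapped a mock peak. In the lowest 10% of the doxorubicin list by score, 924 peaks (56.1% of that bin) had no mock match, and in the next 10% 390 (23.7%) had none. The bin above that held 41 such peaks (2.49%), and the highest-ranking gained peak stood at the 53.9th percentile of its list. Scores of 200 or more were reached by 218 gained peaks, 16.0% of them (interval 14.1% to 18.1%).

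Lost peaks lay still closer to the bottom of their list. Their median width was 988 bp and their median score 104. The lowest 10% of the mock list held 301 of them (20.2% of that bin) and the next bin 27 (1.81%). Only 16 lost peaks, 4.86% (interval 2.80% to 7.78%), scored 200 or more, and the highest stood at the 21.1st percentile of the mock list.

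**Figure D1:**
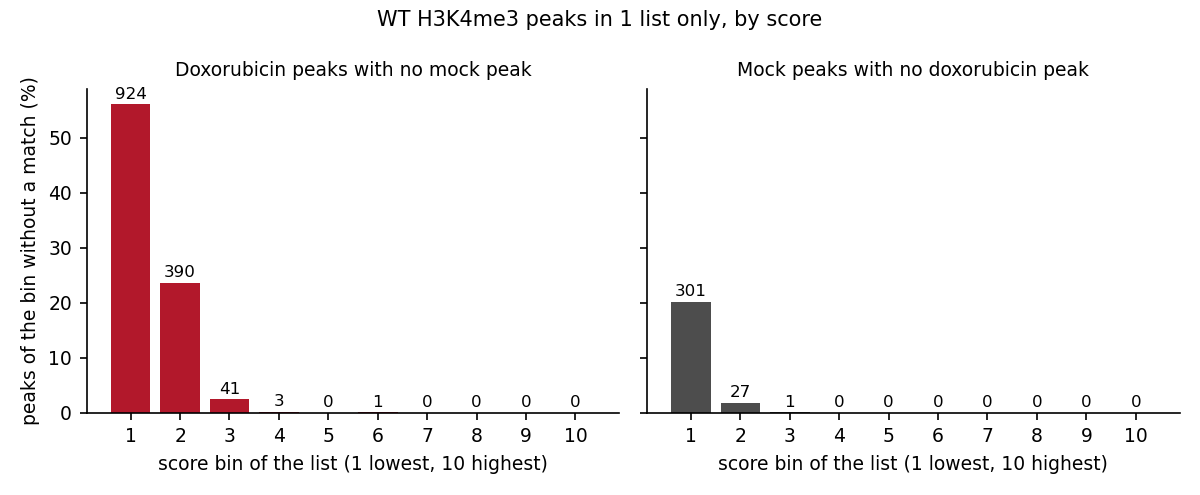
Share of peaks in each bin of 10 percentile points by score (1 lowest, 10 highest) that had no overlapping peak in the other list, for the doxorubicin list (gained, left) and the mock list (lost, right). Tied scores make the upper bins uneven, with 2 doxorubicin and 287 mock peaks in bin 9, and 3293 and 2692 in bin 10. The bars are counts over peaks of 1 library each; gained peaks reach 56.1% of the lowest doxorubicin bin and lost peaks 20.2% of the lowest mock bin.

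Gained and lost peaks often lay where the other list lacks a peak number. The deposited lists keep the caller's running peak numbers, and 10.3% of the numbers in doxorubicin and 6.83% in mock are missing. The positions and scores of the missing peaks are not known. Of the gained peaks, 615 (45.3%) lay between neighbouring mock peaks with a missing number between them, against 6.78% of all intervals between neighbouring mock peaks. The other 740 (54.5%) with a mock neighbour on both sides lay where no mock number is missing. Of the lost peaks, 198 (60.2%) lay in an interval with a missing doxorubicin number, against 10.1% of all such intervals. The length of the intervals was not taken into account, and the part of the missing peaks in these counts was not tested.

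Gained peaks lay both beside existing H3K4me3 and far from it. Their median distance to the nearest mock peak was 14148 bp. Within 1 kb of a mock peak lay 201 of them (14.8%), from 1 to 5 kb lay 252 (18.5%), from 5 to 50 kb lay 543 (40.0%), and at 50 kb or more lay 362 (26.6%). The remaining one was on a chromosome without a mock peak. Lost peaks had a median distance of 22275 bp to the nearest doxorubicin peak, with 8.81% within 1 kb and 32.2% at 50 kb or more. Gained peaks had another gained peak within 10 kb in 12.3% of cases (interval 10.6% to 14.2%), and lost peaks another lost peak in 3.65% (interval 1.90% to 6.28%). Over chromosomes 1 to 19 and X, which hold all but 22 doxorubicin and 21 mock peaks, the gained share of the doxorubicin peaks ran from 6.26% on chromosome 14 to 9.99% on chromosome 11, and the lost share of the mock peaks from 1.54% on chromosome 4 to 3.92% on the X chromosome.

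In the wild type, H3K27me3 lay at a larger share of gained than of lost peaks. An H3K27me3 peak in both wild-type lists overlapped 35.8% of the gained peaks, against 13.6% of the doxorubicin peaks that had a mock match. It overlapped 9.73% of the lost peaks, against 14.1% of the mock peaks with a doxorubicin match. Matched peaks of all scores are a poor comparison, since gained and lost peaks are weak, so the shares were also taken within bins of the peak's own list. In the lowest 10% of the doxorubicin list by score, 29.0% of the gained peaks (interval 26.1% to 32.0%) had H3K27me3 in both lists, against 11.7% of the matched ones (interval 9.49% to 14.3%). In the next bin the shares were 48.7% of the gained and 23.7% of the matched peaks. In the lowest 10% of the mock list, 9.97% of the lost peaks (interval 6.83% to 13.9%) had it, against 35.5% of the matched ones (interval 32.8% to 38.3%). Weak matched peaks of the mock list thus carried H3K27me3 about as often as gained peaks of all scores, and weak matched peaks of the doxorubicin list less often. The share among gained and lost peaks differed with distance to the nearest peak. Among gained peaks, an H3K27me3 peak of the doxorubicin culture overlapped 24.4% of those within 1 kb of a mock peak, 41.7% of those at 1 to 5 kb, 36.8% at 5 to 50 kb and 42.5% at 50 kb or more. Among lost peaks the share was higher within 5 kb of a doxorubicin peak than farther away. An H3K27me3 peak of the mock culture overlapped 8 of 29 within 1 kb (27.6%, interval 12.7% to 47.2%). It overlapped 13 of 54 at 1 to 5 kb (24.1%, interval 13.5% to 37.6%). At 5 to 50 kb the share was 8.57% (interval 4.51% to 14.5%), and at 50 kb or more 5.66% (interval 2.11% to 11.9%).

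The knockout lists show how far these positions were H3K4me3 sites in other libraries. Of the 1359 wild-type gained peaks, 994 (73.1%) overlapped no knockout peak, 231 (17.0%) a peak of knockout doxorubicin only, 43 (3.16%) a peak of knockout mock only and 91 (6.70%) peaks of both. H3K27me3 in both wild-type lists marked 43.1% of those found in neither knockout list and 9.52% of those also present in knockout doxorubicin only. Of the doxorubicin peaks with a mock match, 90.0% had peaks in both knockout lists. Of the 329 lost peaks, 160 (48.6%) overlapped no knockout peak, 77 (23.4%) a peak of knockout doxorubicin only, 22 (6.69%) a peak of knockout mock only and 70 (21.3%) peaks of both. The treatment contrast in the knockout gave 1335 gained (8.84%) and 385 lost peaks (2.69%). H3K27me3 in both knockout lists lay at 13.9% of these gained and 56.6% of these lost peaks, the reverse of the wild type. In the lowest 10% of the knockout doxorubicin list it lay at 15.3% of gained and 40.7% of matched peaks. In the lowest 10% of the knockout mock list it lay at 54.4% of lost and 21.6% of matched peaks.

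The gained peak with the highest score was chr3:96077308-96079014, 1707 bp wide with a score of 1701 in doxorubicin and no mock peak within 2551 bp. The knockout doxorubicin list had a peak there with a score of 1408, and the knockout mock list had none, so the site was called in both treated cultures and in neither mock culture. The lost peak with the highest score, chr3:96081566-96082833 with a score of 410.8 in mock, lay on the same stretch of chromosome 3 and was called in both knockout lists. The gained peak next in score, chr6:112438833-112441156, scored 898.03 and was 204390 bp from any mock peak. The knockout mock list had a peak there with a score of 95.5, and the knockout doxorubicin list had none. This gained peak overlapped H3K27me3 in all 4 lists of that mark, as did chr19:48279295-48281234 with a score of 734.8. The gained peak chr9:44531544-44535413, with a score of 740.05, was 3870 bp wide and 1535 bp from the nearest mock peak. The last of the 5, chr9:49232286-49235459 with a score of 638.0, was 57657 bp from one. The gained peaks named on chromosomes 19 and 9 overlapped no H3K4me3 peak in either knockout list.

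The other 4 high-scoring lost peaks stood at percentiles 16.3 to 17.5 of the mock list. The 5 leading gained peaks stood at 29.3 to 53.9 of the doxorubicin list. These 4 lost peaks were chrX:54032621-54034957 with a score of 313.5, chr4:88772227-88774523 with 309.2, chr6:136822962-136824638 with 285.3 and chr1:92738707-92740863 with 281.1. All 5 lost peaks were present in both knockout lists, and none of them overlapped H3K27me3. The peak on chromosome 1 scored 1477 in knockout doxorubicin, at percentile 40.0 of that list, and 683.2 in knockout mock, at percentile 34.1.

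Peaks present in both lists were mostly narrower after doxorubicin. One-to-one pairs, in which 1 doxorubicin peak overlapped 1 mock peak and no other, numbered 13755 (83.5% of the doxorubicin list and 92.3% of the mock list). Their median width was 1847 bp in doxorubicin and 2024 bp in mock. The median ratio of doxorubicin over mock width was 0.919, with quartiles of 0.834 and 1.01. In 9977 pairs (72.5%) the doxorubicin peak was the narrower, in 3767 (27.4%) the wider, and in 11 the widths were equal. The difference was nearly symmetric: the left edge lay a median 81 bp inward and the right edge 80 bp. Both edges lay inward in 47.7% of pairs, both outward in 11.0%, and the rest were mixed.

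The difference in width was closer to a fixed number of bases than to a fixed fraction. In 5 bins of equal size by mean width, narrowest first, the median ratios were 0.883, 0.895, 0.908, 0.928 and 0.962. The median differences, doxorubicin minus mock, were -132, -172, -187, -183 and -139 bp over the same bins. The widest peaks thus differed least in proportion.

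Large differences in width were few. Of the pairs, 571 (4.15%) were narrower in doxorubicin by 1.5-fold or more and 151 (1.10%) were wider by that much. With each ratio divided by the median ratio, 286 pairs were narrower and 247 wider by that much.

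**Figure D2:**
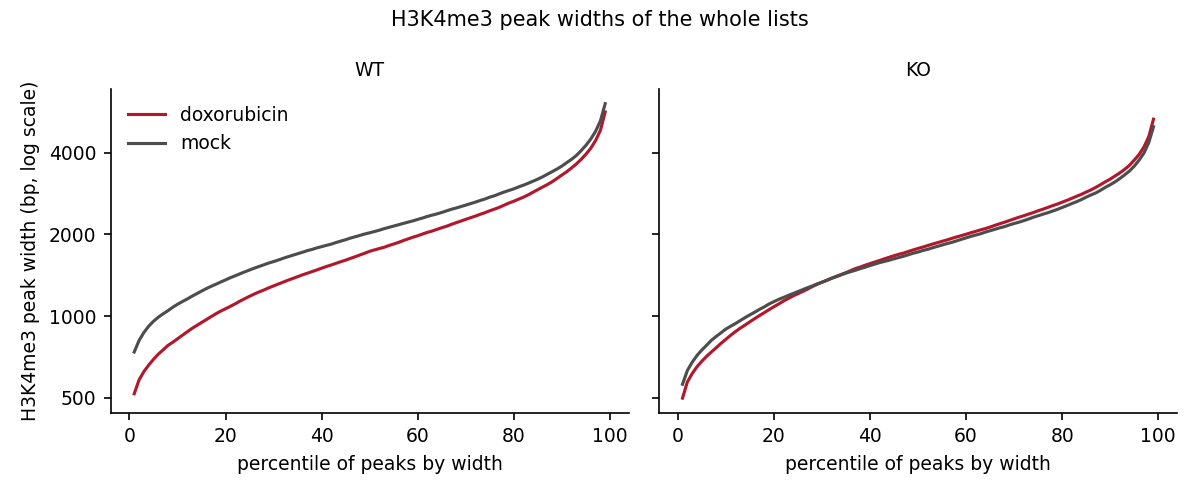
Width of H3K4me3 peaks (bp, log scale) at each percentile of the whole lists, with doxorubicin and mock as lines in WT (left) and KO (right). In WT the doxorubicin line runs below the mock line, with a median of 1734 bp against 2029 bp. In KO the medians are 1777 bp in doxorubicin and 1723.5 bp in mock, and the 5th percentiles 681.7 bp and 750 bp.

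In the knockout the width difference ran the other way. The median ratio over 12922 knockout pairs was 1.05, with 404 (3.13%) wider and 152 (1.18%) narrower by 1.5-fold or more. Wild-type and knockout pairs share no library, yet each contrast is 1 library against 1, and library and treatment cannot be told apart in either. The narrowest peak called was 264 bp in knockout doxorubicin and 270 bp in knockout mock, closer to each other than the wild-type pair of limits. These are single peaks. The 5th percentile of width was 681.7 bp in knockout doxorubicin and 750 bp in knockout mock, against 693 bp and 957 bp in the wild type. At that end of the lists, doxorubicin peaks were thus the narrower in both genotypes. The H3K27me3 lists of the wild type also had narrower matched peaks in doxorubicin, with a median ratio of 0.809 over 6586 pairs, against 0.976 over 6422 pairs in the knockout. Their narrowest peaks measured 417 bp in wild-type doxorubicin and 550 bp in wild-type mock. Whether the lower limits have a part in the widths was not tested.

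**Figure D3:**
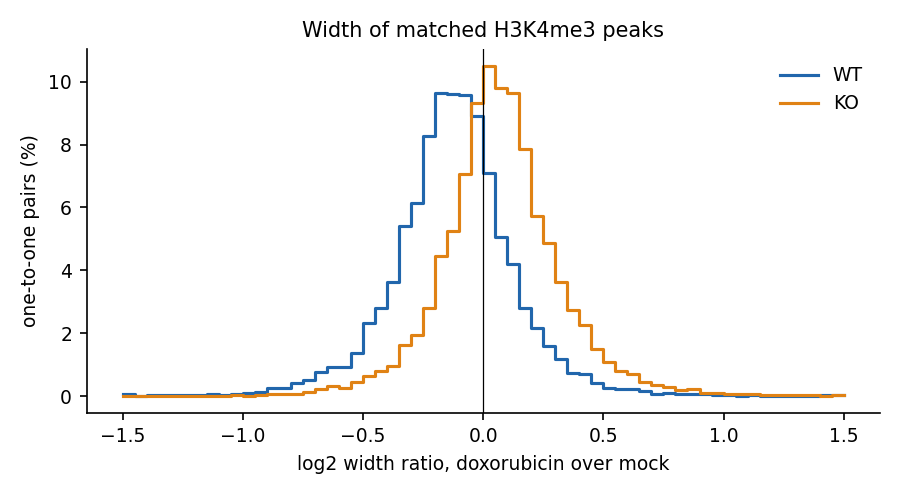
Distribution of the log2 ratio of doxorubicin over mock width among one-to-one H3K4me3 pairs, as a percentage of the 13755 WT pairs and of the 12922 KO pairs. The WT curve is centred below 0, at a median ratio of 0.919, and the KO curve above 0, at 1.05.

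Over the 11965 regions that were one-to-one in all 4 H3K4me3 lists, the median ratio was 0.916 in the wild type and 1.05 in the knockout. The 2 log2 ratios had a Pearson correlation of -0.0158 across regions, which share their libraries and are not independent. A region's width ratio in the wild type thus had almost no linear relation to its ratio in the knockout.

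Among pairs whose score was at or above the median in both lists, the 5 with the largest width ratio had ratios of 1.88 to 3.44. The first, chr12:113916315-113921968, measured 5654 bp in doxorubicin and 1642 bp in mock. The knockout peak there was 1540 bp in doxorubicin and 1398 bp in mock. The next, chr2:25117621-25123516, measured 5896 bp in doxorubicin and 2151 bp in mock, and 1755 bp against 1825 bp in the knockout. The remaining 3 were chr1:182259418-182266075 with a ratio of 1.99, chr17:46838600-46844631 with 1.91 and chr5:111234352-111239226 with 1.88. The knockout peaks at these 5 regions were at most 2596 bp wide in either treatment, and none of the 5 overlapped an H3K27me3 peak in the wild type.

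The 5 with the smallest ratio, chosen in the same way, had ratios of 0.462 to 0.550. The peak chrX:93291385-93294035 measured 2651 bp in doxorubicin and 5732 bp in mock. In the knockout this region held 2 doxorubicin peaks, of 4726 bp in all, and 1 mock peak of 4429 bp. At chr6:52208594-52211603, which overlapped 2 H3K27me3 peaks in each wild-type list, the widths were 3010 bp in doxorubicin and 5516 bp in mock. The knockout pair there was also narrower in doxorubicin, 1982 bp against 2971 bp. The same held at chr2:30700584-30702013, with 1430 bp in doxorubicin and 2661 bp in mock in the wild type, and 1558 bp against 2447 bp in the knockout. The peak chr4:88782572-88784927, with 2356 bp in doxorubicin and 4382 bp in mock, lay on the same stretch of chromosome 4 as the lost peak named above. The knockout peak there was 2793 bp in doxorubicin and 2559 bp in mock. The last, chr3:32607498-32608811, measured 1314 bp in doxorubicin and 2387 bp in mock, and 1918 bp against 2056 bp in the knockout. The knockout pair was thus narrower in doxorubicin at 3 of the 5 regions and wider on chromosome 4. The region on the X chromosome, with 2 knockout doxorubicin peaks, gave no such pair.

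Outside the one-to-one pairs, wide mock peaks often appeared as several doxorubicin peaks. Doxorubicin peaks divided 628 mock peaks (4.22% of the list), 599 of them into 2 pieces, 27 into 3 and 2 into 4. The divided mock peaks had a median width of 3208 bp, and the median gap between neighbouring pieces was 82 bp. The reverse, a doxorubicin peak spanning 2 or more mock peaks, occurred at 109 peaks (0.662% of the list), with a median gap of 93 bp. An H3K27me3 peak of the same condition overlapped 27.5% of the joining doxorubicin peaks (interval 19.4% to 36.9%), against 14.4% of all doxorubicin peaks with a mock match. It overlapped 7.48% of the divided mock peaks (interval 5.55% to 9.83%). Of all mock peaks with a doxorubicin match, 14.1% had H3K27me3 in both wild-type lists. In the knockout the balance was turned round, with 242 divided mock peaks and 413 joining doxorubicin peaks. The knockout shares at H3K27me3 of the same condition also ran the other way, 6.78% of the joining and 11.6% of the divided peaks.

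The mock peak chr10:96078603-96085485, 6883 bp wide, was overlapped by 4 doxorubicin peaks of 6058 bp in all. The mock peak chr13:16105925-16114668, 8744 bp wide, was likewise overlapped by 4, of 7603 bp in all. The other 3 named by the number of pieces, chr1:59537268-59544545, chr11:6370156-6376938 and chr11:68871501-68878201, were each overlapped by 3. None of the 5 overlapped H3K27me3 in the wild type. The 5 joining doxorubicin peaks named by the same rule, among them chr2:117937300-117944916 and chr14:70473981-70479283, each spanned 2 mock peaks.

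**Figure D4:**
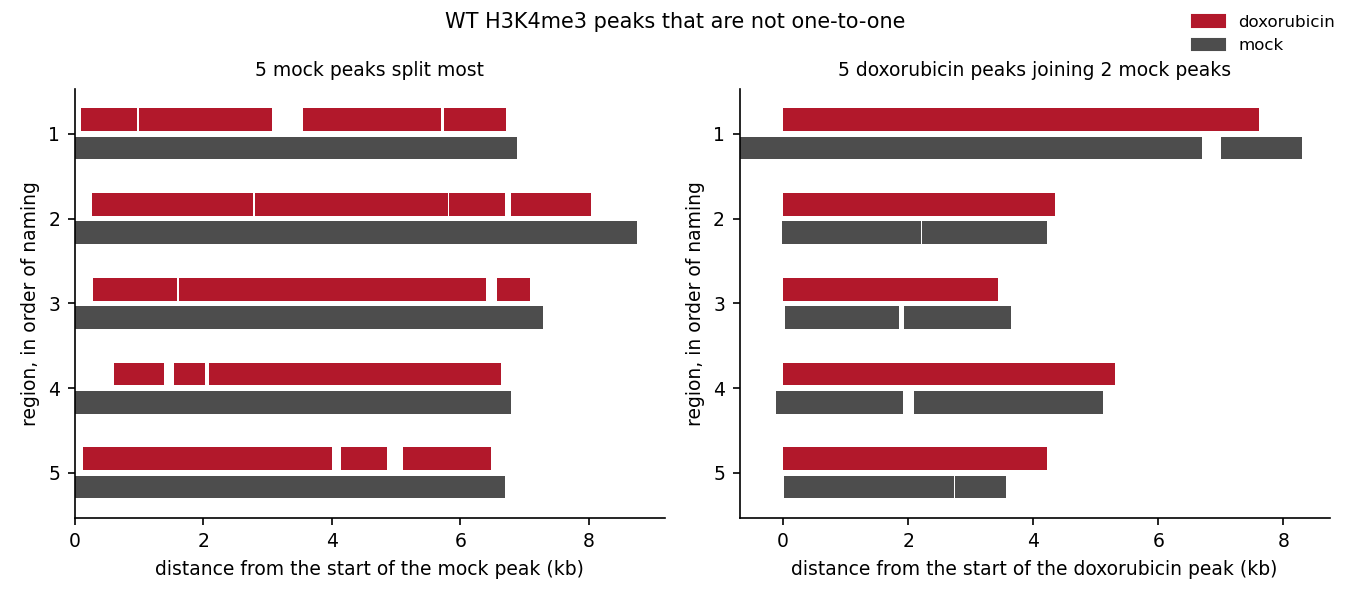
Extents of doxorubicin and mock peaks at the 5 named regions where 1 mock peak overlaps several doxorubicin peaks and at the 5 where 1 doxorubicin peak overlaps several mock peaks, against distance from the start of the single peak (kb). The top 2 divided mock peaks hold 4 doxorubicin peaks each, and each joining doxorubicin peak spans 2 mock peaks.

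The standing of a peak by score within its list was similar at most sites, with a Spearman correlation of 0.956 over the 13755 pairs. By percentile of the whole list, 558 pairs (4.06%) stood 20 points or more higher in doxorubicin and 36 (0.262%) as much lower. The doxorubicin list has more unmatched peaks at its foot, and the median difference over the pairs on this scale was 3.15 points. Percentiles taken among the 13755 pairs alone compare sets of equal length. On that scale 293 pairs (2.13%) stood 20 points or more higher in doxorubicin and 150 (1.09%) as much lower, and the median difference was -1.98 points. The percentile among pairs is used from here on, except for the named regions.

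Peaks that also carried H3K27me3 stood higher in doxorubicin. Of the pairs, 1954 (14.2%) overlapped an H3K27me3 peak in both wild-type lists, 11358 (82.6%) in neither, 120 in doxorubicin only and 323 in mock only. The pairs with H3K27me3 had a median percentile of 25.6 in doxorubicin and 19.6 in mock, and a median difference of 6.09 points (quartiles 1.03 and 12.0). The pairs without had a median percentile of 55.8 in doxorubicin and 57.1 in mock, and a median difference of -2.23 points. The percentile was higher in doxorubicin at 79.2% of the pairs with H3K27me3 and at 34.3% of those without. Each of the 2263 pairs tied at the ceiling in both lists takes -2.23 points by the tie rule and counts as not higher. Of the pairs tied in mock, 22 carried H3K27me3 in both lists and 2374 in neither, so ties lower the 34.3% more than the 79.2%. With both scores under the ceiling, the medians of the pairs with and without H3K27me3 lay 9.62 points apart, against 8.32 over all such pairs. A difference of 20 points or more upward was found at 8.50% of the pairs with H3K27me3 (interval 7.30% to 9.82%) and 0.898% of those without (interval 0.733% to 1.09%). Of all 293 pairs that stood this much higher, 166 (56.7%) had H3K27me3 in both lists. A difference as large downward was found at 1 pair with H3K27me3 and at 148 without.

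The pairs with H3K27me3 start from lower percentiles, so both sets were also compared within 10 bins of the mock percentile. In the lowest bin the median difference was 5.32 points with H3K27me3 (498 pairs) and 0.0182 without. In the third it was 6.85 points with (387 pairs) and -2.42 without, and in the fifth 11.2 with (134 pairs) and -1.31 without. In the eighth, with 37 pairs that carried H3K27me3, it was 10.7 points with and -0.705 without. In each of the 8 lowest bins, the median was higher with H3K27me3 than without. The ninth held 6 pairs with H3K27me3, and in the highest, where most scores are tied, the median was -2.23 points in both sets.

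**Figure D5:**
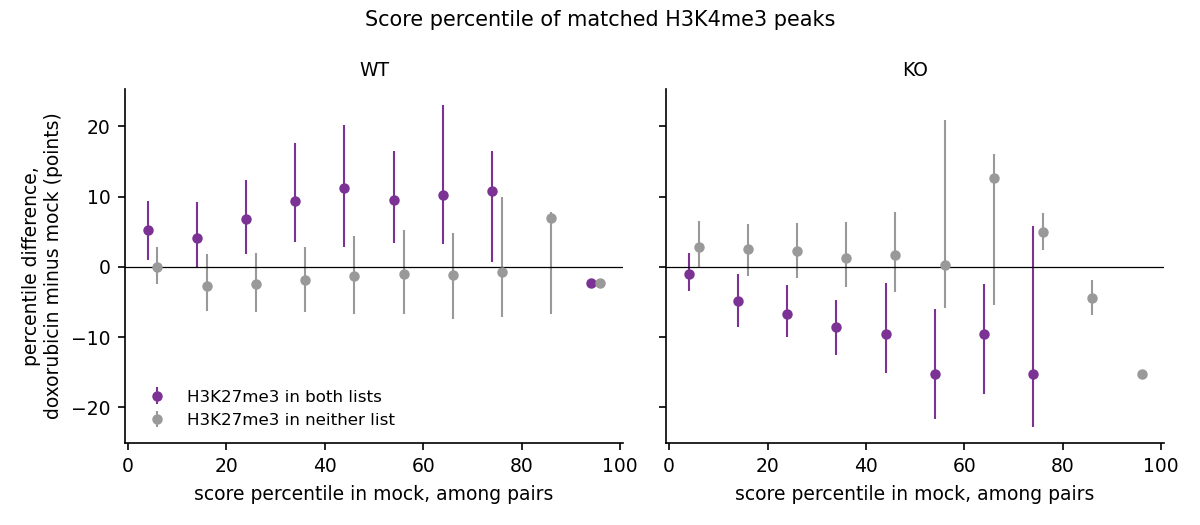
Median difference in score percentile (doxorubicin minus mock, in points) of one-to-one H3K4me3 pairs by bin of 10 points of the mock percentile, for pairs with H3K27me3 in both lists of the genotype and in neither, in WT (left) and KO (right). In WT the pairs with H3K27me3 lie above 0 in the 8 lowest bins, at 5.32 points in the lowest and 11.2 in the fifth, while in KO they lie below 0 in those bins.

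The same pairs also differed in width. With H3K27me3 the median width was 1449 bp in doxorubicin and 1453 bp in mock, with a median ratio of 0.985. Without it the median width was 1949 bp in doxorubicin and 2146 bp in mock, with a median ratio of 0.909. Pairs wider in doxorubicin by 1.5-fold or more made up 3.63% of those with H3K27me3 and 0.678% of those without. Pairs narrower by that much made up 2.56% of those with H3K27me3 and 4.44% of those without. Across all pairs, the log2 width ratio and the percentile difference had a Pearson correlation of 0.274, from measures that share the same reads.

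The H3K27me3 peaks at the 1954 pairs were together narrower in doxorubicin. The widths of all H3K27me3 peaks overlapping a pair were summed, so a broad peak counts at each pair it overlaps. The median summed width was 4167 bp in doxorubicin and 5333 bp in mock, with a median ratio of 0.834. By their highest overlapping H3K27me3 score, the 1954 regions were ranked among themselves in each condition. The percentile on that scale differed by a median of -0.0512 points. Ranks over 1 set of regions balance by construction, so this median cannot show whether H3K27me3 kept its standing in its lists. The percentile differences of the 2 marks had a Pearson correlation of -0.0744 over these pairs, which share libraries.

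In the knockout the H3K4me3 pairs with H3K27me3 stood lower in doxorubicin. The 1390 such pairs had a median difference of -4.77 points, with 21.9% higher in doxorubicin, and the 11167 without had a median difference of 0.457 points, with 51.9% higher. By whole-list percentile, 525 knockout pairs (4.06%) stood 20 points or more higher and 45 (0.348%) as much lower. Among pairs alone 483 (3.74%) stood as much higher and 104 (0.805%) lower, and 5 of the 483 had H3K27me3 in both knockout lists. At the 1137 regions with H3K27me3 in all 4 lists of that mark, the median difference was 6.72 points in the wild type and -4.92 in the knockout. At 721 of these (63.4%) the percentile was higher in doxorubicin in the wild type and lower in the knockout. At the 10174 regions with no H3K27me3 in any list, 1313 (12.9%) showed that pattern. Pairs tied at the ceiling in both wild-type lists cannot show it, and most pairs tied in mock lack H3K27me3. The part of these ties in the 2 shares was not tested. In knockout doxorubicin 35.4% of peaks had tied scores at the ceiling and in knockout mock 8.05%, a wider gap than between the wild-type lists. The part of this in the knockout percentiles was not tested.

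Few regions differed by 20 points or more in both genotypes. Of the 11965 regions matched in all 4 lists, 238 (1.99%) stood this much higher in the wild type and 463 (3.87%) in the knockout. The 5 higher in both made up 2.10% of the wild-type set and 1.08% of the knockout set, shares to be read beside the 3.87% and 1.99% of all regions. As much lower stood 137 regions (1.15%) in the wild type and 99 (0.827%) in the knockout, 3 of them (0.0251%) in both. Higher in the wild type and lower in the knockout were 5 regions (0.0418%). Lower in the wild type and higher in the knockout were 11 (0.0919%). These percentages are of all 11965 regions. Whether such overlaps are more or fewer than the sizes of the sets would give was not tested. Among the 5 higher in both were chr11:96132337-96134870, chr16:30599306-30604116 and chr5:114580261-114582160. The percentile differences of the 2 genotypes had a Pearson correlation of -0.0403 across the 11965 regions, a description over regions that share libraries.

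The 5 pairs with the largest upward difference, by percentile of the whole list, all overlapped H3K27me3 in at least 1 wild-type list, 3 of the 5 in both. Their leader, chr11:80113704-80116289, stood at 90.0 in doxorubicin, where all tied scores stand, and at 43.2 in mock. The regions chr11:82200342-82203734, chr12:50483697-50487418 and chr11:96143469-96149183 also reached 90.0 in doxorubicin, against 43.6, 44.1 and 44.7 in mock. The one on chromosome 12 scored 323.8 in knockout doxorubicin, at percentile 18.2 of that list, and 630.2 in knockout mock, at percentile 32.2. The leader stood at 39.5 in knockout doxorubicin and 41.2 in knockout mock. Higher in knockout doxorubicin were chr11:82200342-82203734, at 42.4 against 20.3, and chr11:96143469-96149183, at 82.3, where tied scores stand, against 37.7. Each of these overlapped 2 knockout mock peaks, of which the higher score was taken. The fifth, chr4:137949583-137952822, stood at 68.3 in doxorubicin and 22.7 in mock, was 3240 bp wide in doxorubicin and 1628 bp in mock, and had no knockout peak in either treatment.

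The 5 pairs with the largest downward difference carried no H3K27me3. Their leader, chr1:164147650-164151130, stood at 53.4 in doxorubicin and 91.0 in mock, where tied scores stand. The regions chr17:57128858-57130955 at 56.8, chr9:108249007-108251443 at 58.5 and chr5:67697415-67699573 at 61.7 in doxorubicin were also at 91.0 in mock. At chr13:63373924-63375882 the percentile was 20.0 in doxorubicin and 51.1 in mock, and the peak was 1959 bp wide in doxorubicin and 4897 bp in mock. It was the only one of the 5 below the tied scores in mock.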

How the data were processed

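ChIP-seq libraries were compared through their deposited peak lists, 1 list for each of the 8 ChIP libraries, and the 4 input libraries and the reads were not analysed here. Per the labels' protocols, crosslinking took 10 min in 1% formaldehyde, and sonication gave fragments of 300 to 500 bp. The submitters' processing notes name Bowtie 0.12.7, MACS 1.4.2 and build mm9. Per the file headers, the authors' score is -10 times the log10 of the peak's p-value, and the deposited scores start at 80. Which control the caller used is not given in the sources used here. Scores are not scaled between libraries, so they were ranked within a list, with values of 3100 or more tied, because scores near 3233 are those of the smallest number above 0 in double precision.

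Starts were taken to count from 0 and are printed from 1. Presence was set by an overlap of 1 bp or more. Widths and percentiles were compared over one-to-one pairs, with thresholds of 1.5-fold and 20 percentile points. Regions named are the 5 gained and 5 lost peaks of highest score, the 5 largest and 5 smallest width ratios among pairs at or above the median score of both lists, the 5 largest percentile differences each way, and the 5 peaks split or joined into most pieces. The members, rules and groups were chosen with earlier results of these data known, and the percentile among pairs, the split by H3K27me3 and the shares within score bins were added after the data had been seen. The named gene lists that were planned, and any sequence, were not used here, because no mm9 annotation or genome was used and coordinates were not converted. With 1 library per group there is no test between conditions and no p-value. Read depth is unknown, so the precision is that of the counts of peaks, given as exact Clopper-Pearson 95% intervals. Alternatives covered the overlap rule, the score floor, ties, joined peaks, equal list lengths and the thresholds. All 8 rules for overlap, pairing, splitting and ranking gave back what was put into simulated peaks built from a list of 14897. Tools were scipy 1.17.1, pandas 2.3.3 and numpy 2.4.6 under Python 3.11.15, with figures by matplotlib 3.10.9.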

Additional observations from a re-analysis of the deposited data

Results flagged for a closer look

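Besides the H3K27me3 shares of gained and lost peaks given above, the doxorubicin contrast went opposite ways in the 2 genotypes for 4 measures. Each genotype has 1 library per treatment, so none of these differences was tested. The median width ratio of one-to-one H3K4me3 pairs, doxorubicin over mock, was 0.919 in the wild type and 1.05 in the knockout. The median percentile difference of pairs with H3K27me3 in both lists of the genotype was 6.09 points in the wild type and -4.77 points in the knockout. The covered length, doxorubicin minus mock, was -1.29 Mb in the wild type and 2.17 Mb in the knockout. The number of mock peaks divided minus the number of doxorubicin peaks joining was 519 in the wild type and -171 in the knockout.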

How the results depend on the processing

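No direction turned round under the alternatives tried except the balance of gained and lost peaks and the median percentile difference over all pairs, which was 3.15 points by whole list and -1.98 among pairs alone. With both lists shortened to the same number of top-scoring peaks, 462 were gained and 780 lost, a setting in which the balance shows no direction by construction. Gained peaks numbered 218 and lost peaks 16 where the unmatched peak had to score at least 200. The median width ratio was 0.916 at a reciprocal overlap of 50%, 0.907 where the percentile moved by under 10 points, 0.908 with both scores under the ceiling and 0.923 with peaks within 1 kb joined. Wider pairs numbered 46 under the 10-point limit, 244 with joining, 25 at 2-fold and 247 after division by the median ratio. Narrower pairs numbered 66 at 2-fold and 286 after that division. Pairs higher in percentile numbered 293 among pairs alone and 3243 at 10 points. Pairs lower in percentile numbered 150 among pairs alone, 17 with both scores under the ceiling, 498 at 10 points and 80 with scores ranked as deposited. The share of matched doxorubicin peaks at H3K27me3 was 14.4% for the same condition, 13.6% for both lists and 12.2% for cover of at least 50% of the peak. The gap in median percentile difference between pairs with and without H3K27me3 was 8.32 points. It was 10.9 by whole list, 9.62 under the ceiling, 7.67 at mock widths of 1000 to 2000 bp and 7.34 in the lower 50% of mock scores, alternatives chosen after seeing the data. The cause of these differences was not tested. The other 31 values stayed within their limits. No paired analysis was possible because each group has 1 library. The score floor of 80 limits what can be said of weak peaks, and absence from a list does not show absence of the mark.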
